A study of Arabidopsis thaliana with 9 samples.

Results

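A HAP5 triple mutant of Arabidopsis thaliana was compared with wild type on 6 of the 9 arrays of the study, 3 per genotype, taken by their titles. The other 3 arrays were of a constans mutant and enter the estimate of the spread. The labels call the triple mutant a T-DNA gene knock out in Col-0 from a source named Q3 and the wild type Col-1, so the mutations and the difference in background cannot be told apart. The constans mutant is labelled co-SAIL, with no background given. In all 3 genotypes the tissue was the above-ground whole plant at stage 1.03 and an age of 10 days. The plants had spent 4 days at 4 °C, grew in soil at 22 °C under 110 uE m-2 s-1 in days of 16 h light and 8 h dark, and were collected 14 h after lights on. No label ties the replicate arrays to separate cultures or plants, so the p-values rest on a spread among arrays that may be technical.

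HAP5 proteins, also called NF-YC, are subunits of the trimeric NF-Y complex, which binds CCAAT boxes in promoters. Plants carry families of each subunit, and NF-YC proteins act with CONSTANS, a regulator of flowering in long days. No probe set is named for an NF-YC gene, CONSTANS, FT or SOC1 in the annotation used, so the mutated genes could not be checked against the labels. The probe-set annotation often gives only a locus code, and the roles stated here for such loci are general background, not content of the files.

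The values were MAS5 signals, the linear brightness summary of each probe set, scaled by the authors to a common trimmed mean on each array. Correlations of log2 signal over probe sets, which are not independent replicates, were 0.98 to 0.985 within the triple mutant, 0.974 to 0.983 within wild type and 0.97 to 0.981 between them. The tissue label was checked with its markers. RCA and PRK, enzymes of leaf carbon fixation, had a median signal of 4610, and 1 of 4 named root probe sets, PYK10, was bright enough to be tested, with a mean signal of 199, so a root marker was not absent. Signals of the array's 25S ribosomal RNA control varied, at 42.4, 16.9 and 15.9 in the triple mutant and 22.6, 108 and 418 in wild type. In the constans mutant they were 56.5, 1152 and 1079. With 3 arrays per genotype, the number of arrays limits the precision.

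Few transcripts passed the test. Of 14173 probe sets tested, 13 (0.0917%) had an adjusted p under 0.05 in limma with Benjamini-Hochberg adjustment, 7 higher (0.0494%) and 6 lower (0.0423%) in the triple mutant, and in all 13 the 3 arrays of one genotype lay beyond the 3 of the other. Only 5 of them match a single named gene. AT1G47400, a small peptide induced by iron deficiency, rose, and Cpn60beta3, a subunit of the chaperonin that folds proteins in the chloroplast, AT2G24040, AGL87, a MADS-box protein, and AT2G40010, a ribosomal stalk protein, fell. Of 21 alternative fits Cpn60beta3 was called in 21, AT2G24040 in 16, AT1G47400 and AT2G40010 in 13 each and AGL87 in 10, and leaving out any 1 triple mutant array ended the calls of AGL87, AT2G40010 and AT1G47400. So did leaving out any 1 wild-type array for AGL87, wild-type replicate 1 or 2 for AT2G40010 and wild-type replicate 2 or 3 for AT1G47400. The call of AT2G24040 was lost without triple mutant replicate 2 or 3 or wild-type replicate 1. The split of calls was 73 higher and 26 lower with array weights and 1 higher and 8 lower with no filter on dim probe sets. Without the adjustment p was under 0.05 for 923 probe sets (6.51%), 481 higher (3.39%) and 442 lower (3.12%). The arrays of the genotypes did not overlap in 1992 (14.1%), of which 1033 (7.29%) were higher and 959 (6.77%) lower. Mean levels were higher for 51.4% of all probe sets tested and lower for 48.6%.

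**Figure D1:**
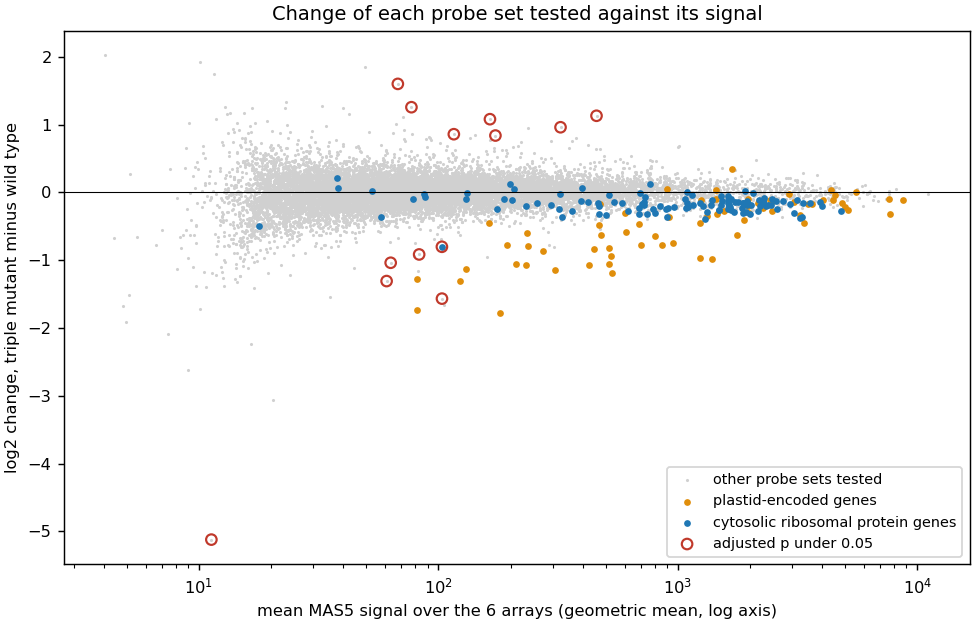
Each point is a probe set tested; the horizontal axis is the geometric mean MAS5 signal over the 6 arrays on a log axis and the vertical axis the log2 change, triple mutant minus wild type. The 13 circled probe sets passed an adjusted p of 0.05, and 108 of the 117 ribosomal protein probe sets lie under 0 at mostly high signal.

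In the 13 probe sets, signals in the constans mutant often lay with wild type, but not always. The unnamed probe set 248964_at had signals of 499.5, 424 and 434 in the triple mutant, 205, 272 and 223 in wild type and 54.3, 52.6 and 46.2 in the constans mutant. It was therefore high in the triple mutant and low in the constans mutant, with no overlap among the 3 genotypes. The unnamed 245712_at had 122.2, 113.7 and 117.9 in the triple mutant, 48.8, 34.03 and 35.2 in wild type and 97.1, 120.8 and 99.9 in the constans mutant. Here both mutants lay above wild type. The largest change of all tested was in the unnamed 264190_at, with 1.00, 6.28 and 1.08 in the triple mutant. It had 72.6, 62.8 and 64.5 in wild type and 58.9, 69.2 and 62.1 in the constans mutant. Its log2 change was -5.12, but its lowest signal lay under the floor of 1.03 set before the log2 transform. It was called in 20 of 21 alternative fits. The unnamed 264650_at changed by -1.57 (log2) and was called in all 21.

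**Figure D2:**
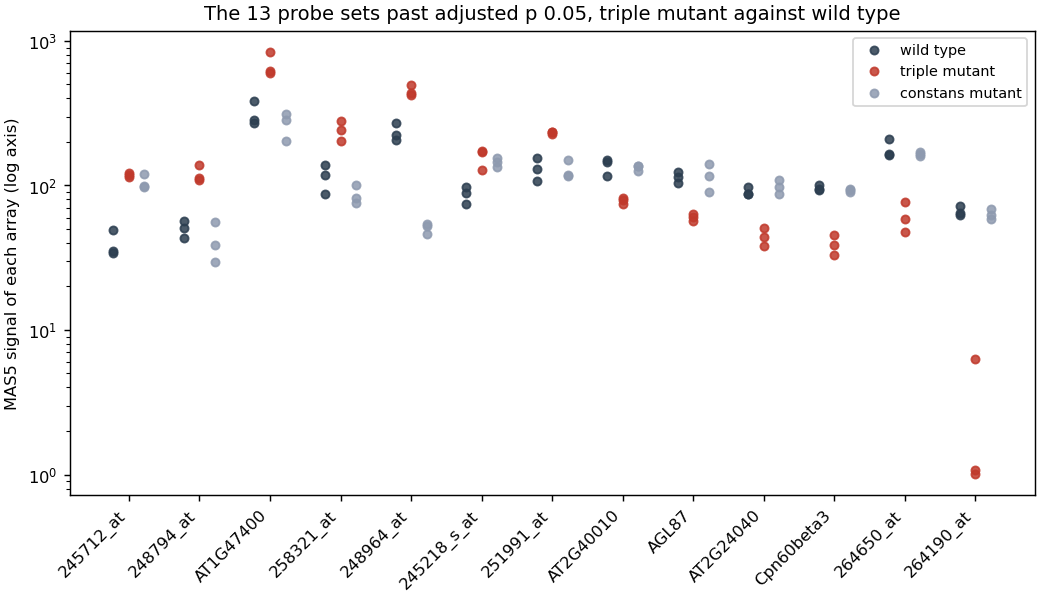
MAS5 signals of the 9 arrays (log axis) for the 13 probe sets past an adjusted p of 0.05 in the triple mutant against wild type, 1 point per array, ordered from the highest to the lowest log2 change. The 3 triple mutant arrays lie apart from the 3 wild-type arrays in all 13.

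A small difference ran through the genes of cytosolic ribosomal proteins, which build the subunits that translate nuclear messages. Of 117 probe sets tested from this family, 108 had a lower mean in the triple mutant, against 48.6% of all probe sets tested. Their median log2 change was -0.17, a level 11.1% lower, against 0.0065 over all probe sets tested. In 51 of them all 3 triple mutant arrays lay under all 3 wild-type arrays, against 6.77% of all probe sets tested, and in 0 did they lie above. Single members were mostly short of the test: 1 passed the adjusted threshold, and 31 were lower at an unadjusted p under 0.05, against 3.12% of all probe sets tested. The list holds 224 loci, of which 131 have a named probe set, and it was drawn up after these values had been seen, so its counts describe these arrays and are not independent evidence of a direction.

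AT2G40010 encodes a form of P0, the base of the stalk that recruits elongation factors. The 3 tested probe sets for P0 all had a lower mean, with a median log2 change of -0.24. AT2G40010 was dim beside the median signal of 1268 over the 117 ribosomal probe sets. Its signals were 73.9, 81.5 and 79.7 in the triple mutant and 150, 147 and 116 in wild type. The lowest wild-type array lay above the highest triple mutant array, and the fall by 0.80 ± 0.13 on the log2 scale (SE, n = 3 arrays per genotype) had an adjusted p of 0.0309 in limma. In the constans mutant its signals were 137, 136 and 126, and the triple mutant was lower than the constans mutant by the same test (-0.77, adjusted p = 0.00355).

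The other members had smaller differences, most of them at higher signal, since 104 of the 117 were bright. AT2G47610, for L7a of the large subunit, had signals of 1669, 1725 and 1817 in the triple mutant and 2150, 2135 and 2071 in wild type. The genotypes did not overlap, and the log2 change of -0.29 ± 0.09 (SE) had a limma adjusted p of 0.542. AT3G16780, for L19, had 300, 305 and 263 in the triple mutant and 363, 377 and 371 in wild type. AT5G02870, for L4, had 2630, 2908 and 2743 in the triple mutant and 3422, 3327 and 3479 in wild type. For both, all triple mutant arrays again lay under all wild-type arrays, with limma adjusted p-values of 0.414 and 0.557. AT5G20290, for S8 of the small subunit and the brightest member, had 4335, 4686 and 4068 in the triple mutant and 5236, 5582 and 4933 in wild type, also apart.

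Both subunits shared the pattern. For the large subunit 58 of 63 probe sets had a lower mean, with a median log2 change of -0.19. The small subunit had 40 of 42 lower with a median of -0.15, and the stalk proteins 10 of 12 with a median of -0.15. The probe sets fall into 56 protein families. In 49 of these every tested member had a lower mean, and 32 had a member whose arrays lay apart. The 3 probe sets of L31 and the 3 of P1 all lay apart, while L7 and P2 each had 2 of 4 members with a lower mean. Paralogous ribosomal protein genes are similar in sequence, so a probe set can also read a relative of the gene it is named for.

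The shift had a similar size on the 3 triple mutant arrays. All were measured from the same wild-type means, so they are not independent. The median deviation of the 117 probe sets from their wild-type means was -0.18, -0.17 and -0.16 (log2) on the 3 triple mutant arrays and 0.00016, 0.011 and -0.0063 on the 3 wild-type arrays. It was -0.0044, 0.086 and -0.043 on the constans arrays. Triple mutant minus constans mutant, 106 of 117 had a lower mean, and 2 were lower past the adjusted threshold, AT2G40010 and AT3G22230 for L27. Of all 14173 probe sets tested, 205 were lower past that threshold, and 3.38% passed it in either direction. With the 25S signal in the fit the median against wild type was also -0.17.

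**Figure D3:**
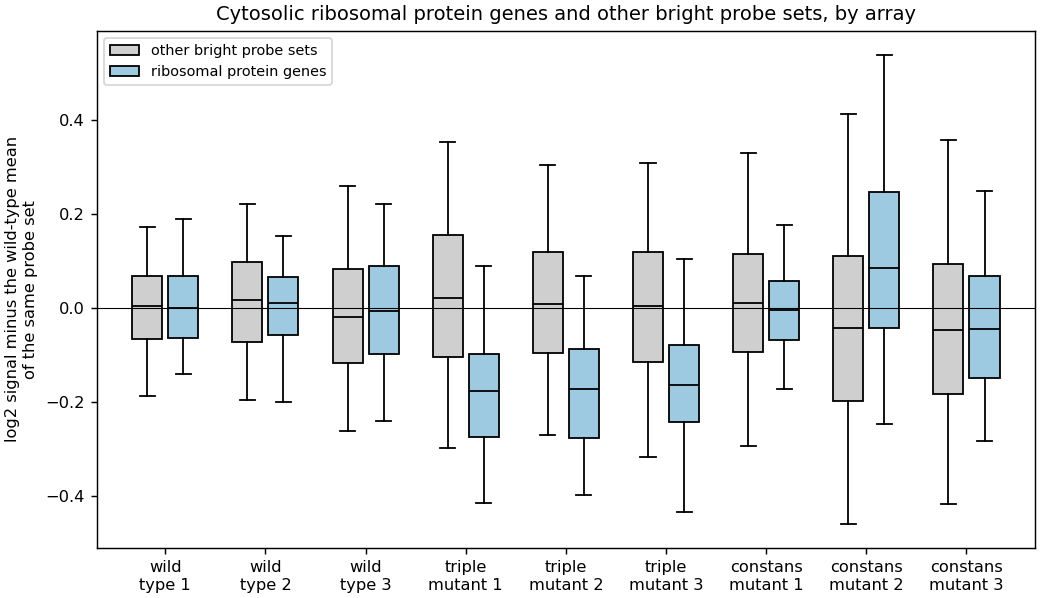
Log2 signal minus the wild-type mean of the same probe set, by array, for the 117 ribosomal protein probe sets (blue) and the 3440 other bright probe sets (grey); boxes span the quartiles, lines mark medians and whiskers reach the 5th and 95th percentiles. The blue medians are -0.18, -0.17 and -0.16 on the triple mutant arrays.

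Bright probe sets outside the ribosomal family were not lower as a group. Whether signal level contributes to the ribosomal difference was not tested. Bright probe sets were defined as those with a mean signal of at least 190 over the 6 arrays, the 75th percentile of those tested. The 3440 bright probe sets outside the ribosomal family had a median log2 change of 0.014. Of these 45.6% had a lower mean, against 47.1% of all bright probe sets. Arrays of those outside the family lay apart downward in 6.83% of cases. Among the brightest probe sets, with a mean signal of at least 472, 85 of 88 ribosomal probe sets had a lower mean and 43 lay apart downward, while the 1330 others had a median of 0.0071 and 112 lay apart downward. Ribosomal proteins of the plastid, encoded in the nucleus, had 7 of 9 means higher and a median of 0.019. In bulk tissue, fewer cells of a type and less RNA per cell cannot be told apart.

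Among 3544 bright probe sets, 338 (9.54%) had all triple mutant arrays above wild type and 283 (7.99%) had all below. Only AT1G47400 and 248964_at of these passed the adjusted threshold (0.0564%). AT1G47400 had signals of 622, 834 and 596 in the triple mutant against 385, 283 and 270 in wild type, a rise of 1.13 ± 0.18 (log2, SE) with a limma adjusted p of 0.0309. Its lowest triple mutant array lay well above the highest wild-type array.

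The other bright genes with the smallest p did not pass the adjusted threshold, and their values are given as such. CDI had signals of 407, 524 and 401 in the triple mutant and 296, 270 and 270 in wild type (log2 change 0.66, limma adjusted p = 0.118). AT3G10720, a pectin methylesterase that modifies the cell wall, had 253, 269 and 253 against 167, 182 and 140. In the constans mutant AT3G10720 had 325, 282 and 205, so both mutants lay above wild type. AT4G27280, a calcium-binding EF-hand protein, had 524, 575 and 538 in the triple mutant, 336, 429 and 440 in wild type and 137, 136 and 150 in the constans mutant. The triple mutant exceeded the constans mutant in AT4G27280 by 1.95 (log2, limma adjusted p = 5.97e-07), while its change from wild type was 0.45 (adjusted p = 0.362). TIL, a lipocalin that protects membranes under heat and cold, had 463, 487 and 509 against 353, 375 and 405. NdhN, a nuclear-encoded subunit of the chloroplast NDH complex, had 885, 855 and 886 against 710, 714 and 630. These genes were picked from bright genes whose triple mutant arrays all lay above the wild-type arrays, so that separation is the selection rule.

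Of the 15 bright genes with the smallest p on the lower side, 5 are protein or assembly genes of the plastid genome: psbB, ycf3, ndhG, petN and ndhF, and rpl16 encodes a plastid ribosomal protein. Another 2 are the ribosomal protein genes AT3G16780 and AT2G47610. The plastid gene psbB, a core antenna of photosystem II, had signals of 990, 959 and 724 in the triple mutant and 1230, 1918 and 2198 in wild type, with a limma adjusted p of 0.244. Over the 69 plastid-encoded probe sets 64 had a lower mean and 25 lay apart downward, against 48.6% and 6.77% of all probe sets tested. At an unadjusted p under 0.05, 27 were lower, against 3.12% of all probe sets tested, and 0 were called (limma). Their median log2 change was -0.35, but -0.070 once the 25S signal entered the fit. The median deviation from the wild-type means was -0.25, -0.27 and -0.58 on the triple mutant arrays. On the wild-type arrays it was -0.27, 0.11 and 0.14, so wild-type replicate 1 was as low as triple mutant replicates 1 and 2. The constans arrays had -0.26, 0.60 and 0.12. One plastid gene, psbJ of photosystem II, lay apart upward in the triple mutant and is among the 15 bright genes on the higher side. Its signals were 1825, 1954 and 1938 against 1416, 1698 and 1394. AT1G06830, a glutaredoxin, had 390, 466 and 393 against 592, 573 and 492.5. MSRB6, which repairs oxidised methionine, had 370, 290 and 282 against 374, 430 and 442, and its highest triple mutant array lay just under the lowest wild-type array.

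**Figure D4:**
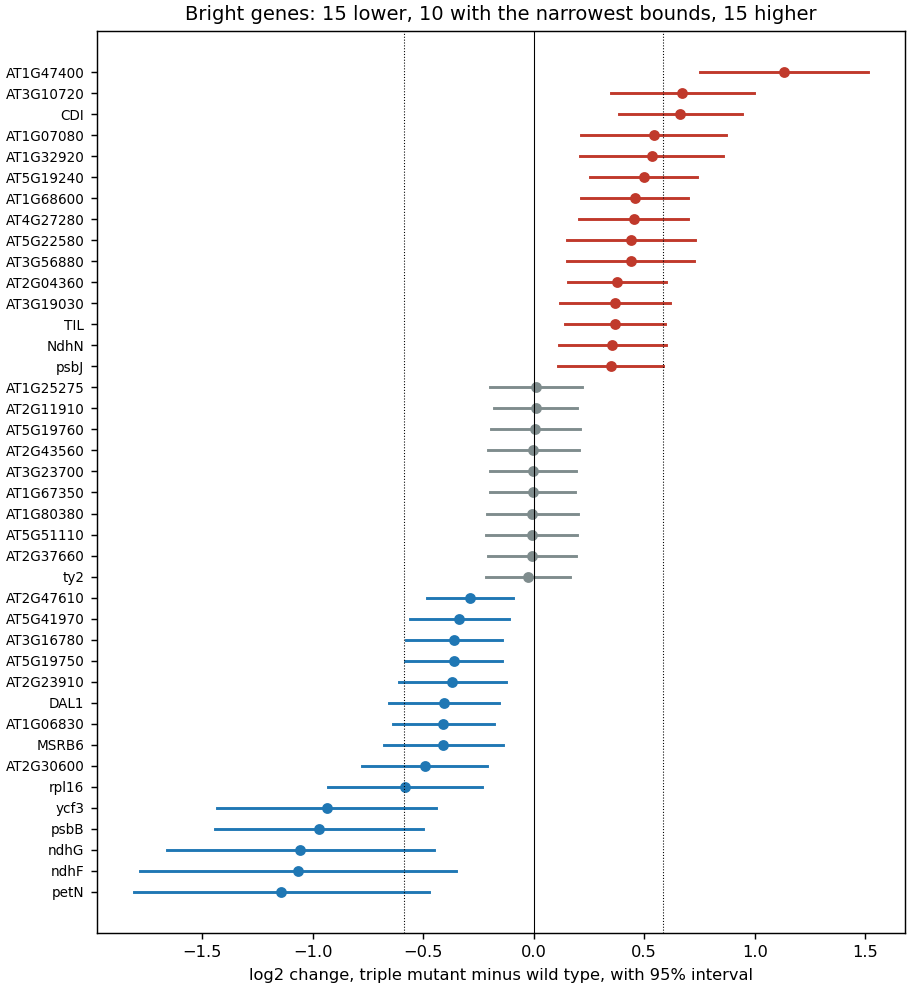
Log2 change, triple mutant minus wild type, with its 95% interval for 40 bright genes: the 15 with the smallest p among those with arrays apart in each direction (red higher, blue lower) and 10 whose interval reaches least from 0 (grey). Dotted lines mark 1.5-fold; of the 40, only AT1G47400 passed the adjusted threshold.

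Most bright transcripts were bounded within a narrow range. The 95% interval of the change lay within 1.5-fold for 3296 of 3544 bright probe sets (93%) and within 2-fold for 3499 (98.7%). Over all 14173 tested these shares were 68.6% and 93.9%, so dim genes were less well bounded. A change of at least 1.5-fold was measured in 39 bright probe sets (1.1%) and of at least 2-fold in 7 (0.198%). AT5G19760, a carrier of the mitochondrial inner membrane, had signals of 1784, 1805 and 1894 in the triple mutant and 1801, 1813 and 1838 in wild type, and its interval ran from -0.19 to 0.21 (log2). AT1G80380, glycerate kinase of photorespiration, had 571, 532 and 578 against 549, 549 and 590. For both, the arrays of the genotypes were interleaved.

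The few nuclear genes of photosynthesis that could be tested were mostly in this bounded class. In the nuclear photosynthesis list of 39 loci all 7 tested members had an interval within 1.5-fold, with a median log2 change of 0.040 and 0 members past the adjusted threshold (limma), although 1 had p under 0.05 unadjusted. NdhN, described above and not in that list, had an upper bound of 1.51-fold. The member with p under 0.05, LHCB4.3, an antenna protein, had 868, 804 and 815 against 686, 680 and 675. Carbon fixation enzymes had 6 of 6 intervals within 1.5-fold and a median of 0.013, and chlorophyll synthesis 8 of 8 with 0.024. RCA had 6099, 5840 and 4944 in the triple mutant and 5395, 6021 and 5497 in wild type, and the genotypes overlapped.

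Protein folding in the endoplasmic reticulum had 4 tested members, all with a lower mean, a median log2 change of -0.26 and 3 with arrays apart. Over all probe sets tested 48.6% had a lower mean, 6.77% lay apart downward and 3.12% were lower at an unadjusted p under 0.05 (limma). ATERDJ3B, a co-chaperone, had signals of 339, 369 and 350 against 445, 398 and 441 (limma adjusted p = 0.573). The calnexin gene AT5G07340 had 84.4, 90.2 and 86.4 against 119, 104 and 105, and CRT1b, a calreticulin, had 622, 608 and 635 against 749, 805 and 649. PDIL5-1, a disulfide isomerase, had 157, 138 and 114 against 137, 155 and 154, and overlapped. None of the 4 passed the adjusted threshold in limma, and 3 had p under 0.05 unadjusted. The proteasome, which degrades proteins, had 8 of 9 means lower with a median of -0.071, 2 members apart and 0 called (1 at p under 0.05 unadjusted, limma), in a list added after its values were seen. Another list, of proteasome and ubiquitin genes matched by symbol, had 9 of 12 means higher and a median of 0.050. That median was -0.035 with the 25S covariate, so no common direction is given.

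Iron status genes had 6 of 6 means higher with a median log2 change of 0.72, and 2 had arrays apart, where 7.29% of all probe sets tested lay apart upward; 1, AT1G47400, was called. The median was 0.45 without triple mutant replicate 2. PYE, a bHLH regulator of the iron response, had 90.8, 101.4 and 72.3 against 55.5, 47.9 and 40.4 (limma adjusted p = 0.212). Cold and dehydration genes had 10 of 12 means higher with a median of 0.18, 3 apart (7.29% over all tested) and 0 called. At p under 0.05 unadjusted (limma) 4 were higher, against 3.39% over all tested. The median was 0.33 with the 25S covariate and 0.29 with array weights. DI21, a drought-induced gene, had 163, 194 and 218 against 87.9, 102 and 131, with no overlap. Among 28 cell wall probe sets 16 means were higher, with a median of 0.041 and 0 called. Arrays lay apart upward in 5 and downward in 3, against 7.29% and 6.77% over all tested. At an unadjusted p under 0.05 (limma), 4 were higher and 1 lower, against 3.39% and 3.12% over all tested. EXPA16, an expansin that loosens walls, had 70.8, 76.6 and 77.5 against 37.8, 57.4 and 52.2. JMT, which methylates jasmonic acid, had 25.3, 28.5 and 26.7 against 52.8, 47.6 and 41.5, and the constans mutant had 34.4, 24.8 and 22.2, so both mutants lay under wild type. These signals are dim, JMT was not called, and of 20 alternative fits 1 called it. The 4 jasmonate genes tested had 2 means higher and 2 lower, with changes from -0.81 to 1.03, a median of -0.012 and 0 called.

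**Figure D5:**
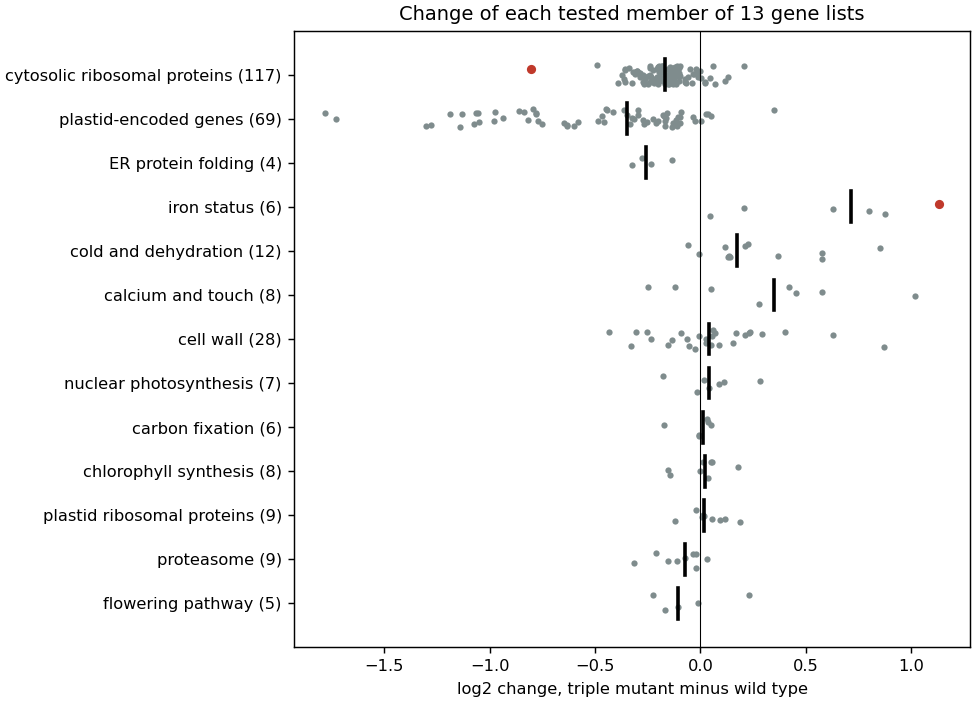
Log2 change, triple mutant minus wild type, of each tested member of 13 gene lists, with the number tested in brackets; black bars are medians and red points passed an adjusted p of 0.05. The ribosomal points gather around -0.17, while photosynthesis, carbon fixation and chlorophyll lists centre within 0.040 of 0.

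Calcium and touch genes had 6 of 8 means higher and a median log2 change of 0.35, or 0.21 without wild-type replicate 1. Their median deviation from the wild-type means was 0.41, 0.47 and -0.018 on the triple mutant arrays. It was -0.19, 0.059 and 0.16 on the wild-type arrays, so triple mutant replicate 3 lay under wild-type replicates 2 and 3. Arrays lay apart upward in 2, against 7.29% of all probe sets tested, and 0 were called. At an unadjusted p under 0.05 (limma) 2 were higher, against 3.39% of all probe sets tested. The 13 transport probe sets had 10 means higher and a median of 0.18, but -0.0050 with no filter. Clock (0.23) and gibberellin genes (-0.21) had 3 tested members each, and both medians changed sign with the 25S covariate. Several larger lists had medians near that of the array. The 31 glycosyltransferase and glutathione transferase probe sets had 16 means higher and 15 lower with a median log2 change of 0.00012, and 0 were called or had p under 0.05 unadjusted (limma). Redox genes had a median of -0.030 over 17 and cytochromes P450 one of 0.034 over 10. The 5 flowering pathway genes with a tested probe set had a median of -0.11 and 0 called (0 at p under 0.05 unadjusted), but only 2 of the 5 intervals lay within 1.5-fold, so wider differences remain within the error of these arrays.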

How the data were processed

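Total RNA was hybridised to 9 Affymetrix ATH1 arrays, 3 per genotype. The authors deposited linear MAS5 intensity for each probe set. MAS5 and GCOS appear, with no version, in the submitters' processing notes. Of 22810 probe sets, 64 controls were left out. A floor at the pooled 10th percentile (1.03) was applied before the log2 transform. A probe set was tested if 1 genotype mean reached the 40th percentile (18.6), which left 14173 of 22746. All 9 arrays entered 1 limma 3.58.1 fit (lmFit, then eBayes with trend, R 4.3.3), with 6 residual degrees of freedom, and Benjamini-Hochberg adjustment at 0.05. The method was tested on simulated data. Python 3.11.15, pandas 2.3.3 and matplotlib 3.10.9 made tables and figures.

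The platform annotation names 1 gene for 13513 probe sets, of which 7691 were tested; it gives several genes for 503 and no gene for 8730. The comparison, members and lists were chosen with earlier results of these data known, and 5 lists, the cytosolic ribosomal one among them, were added after their values had been seen. Named genes were all called probe sets, the 15 bright genes per direction with arrays apart and smallest p, the brightest and up to 3 smallest-p members of each list, and 10 genes of mean signal above 472 with intervals reaching least from 0. AT5G02870, PDIL5-1 and AT3G22230 were picked outside that rule with their values in view. Alternatives were other normalizations, floors, filters, weights, covariates and left-out arrays. Replicate numbers did not pair the arrays.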

Additional observations from a re-analysis of the deposited data

How the results depend on the processing

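The count of 13 called probe sets moved most: it was 8 with quantile normalization, 8 with each array centred on its median, 4 with no trend, 99 with array weights (73 higher, 26 lower), 9 with no filter (1 higher, 8 lower, 3 shared with the 13), 28 with only the 2 genotypes, 8 with the 25S signal as a covariate, 27 without the arrays with a 25S signal above 400, 8 at a change of at least 2-fold, 4 among single-gene probe sets, and 5 to 26 when each array was left out in turn. The replicate number as a block gave 20; same-numbered triple mutant and wild-type arrays correlated at -0.035, 0.0035 and 0.139, so the numbers do not pair them. All 13 kept their direction in 21 alternative fits, as did all 30 bright named genes. In all of these the arrays of the genotypes lay apart, and for the 30 this was a selection rule. Fits that leave out arrays or change the filter therefore could not reverse their direction. AT2G40010 and AT1G47400 were each called in 13 of the 21, with adjusted p up to 0.173 and 0.322, and AGL87 in 10, with adjusted p up to 0.250. Bright probe sets with arrays apart numbered 1104 above the median brightness, 1066 without the arrays of high 25S signal and 621 to 1078 with 1 array left out; the last 2 settings compare fewer arrays, which overlap less often. Intervals within 1.5-fold numbered 5031 with no filter. Named genes called between the mutants were 35, and 19 to 46 with 1 array left out.

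The ribosomal median stayed negative: -0.15 with quantile normalization, -0.16 centred, -0.18 with array weights, -0.18 without the arrays of high 25S signal, -0.18 for bright members, -0.19, -0.15 and -0.15 for large subunit, small subunit and stalk, and -0.19 to -0.16 with 1 array left out. The subunit and bright subsets were added after the data were seen. With quantile normalization 105 of the 117 ribosomal probe sets had a lower mean, where the main fit had 108. The number that lay apart downward was then 35, where the main fit had 51, against 6.81% of all probe sets tested. The plastid-encoded median was -0.070 with the 25S covariate. The cold and dehydration median was 0.29 with array weights, 0.33 with the 25S covariate, 0.25 without the arrays of high 25S signal and 0.18 to 0.25 with 1 array left out. The iron status median was 0.45 to 0.89 with 1 array left out. Endoplasmic reticulum folding was -0.30 with the 25S covariate. The causes were not tested.

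Of 34 lists with at least 3 tested members, 15 kept the sign of their median in all settings. Medians that changed sign although the original median exceeded its spread between arrays were transport with no filter (-0.0050); histone loci with array weights (0.010), without the arrays of high 25S signal (0.028) and without wild-type replicate 3 (0.028); clock (-0.0018), mitochondrion-encoded (0.011), gibberellin (0.020) and translation factor loci (-0.043) with the 25S covariate; translation factor loci without triple mutant replicate 1 (-0.026) or wild-type replicate 2 (-0.079); and flowering without triple mutant replicate 1 (0.032). With 1 array left out in turn, the medians ran from -0.13 to 0.032 for flowering, -0.12 to 0.028 for histone loci and -0.079 to 0.11 for translation factor loci. Medians of photosynthesis, carbon fixation, chlorophyll, plastid ribosomal, cell wall, P450, redox and transferase lists also changed sign in some settings and have no direction. The same holds for the proteasome and ubiquitin (-0.035 with the 25S covariate), jasmonate, flavonoid and auxin lists.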
